A study of Mus musculus with 6 samples.

Results

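The genes examined encode the DNA methylation machinery of the mouse: the methyltransferases and their cofactors Dnmt1, Uhrf1, Dnmt3a, Dnmt3b and Dnmt3l, and the methyl-CpG-binding domain proteins Mbd1, Mbd2, Mbd3 and Mbd4. They are 9 of 17076 annotated genes on the arrays, and were picked by gene symbol or RefSeq accession in the probe annotation. Together they had 373 of 474380 non-control probes, 268 under the gene's own symbol and 105 through an accession only. Of the 9 genes, 8 had a start window, that is at least 3 probes with their centre within 1000 bp of the annotated start, among 16075 such genes and 16043 distinct windows. Dnmt3a had none.

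Occupancy by Rybp was profiled by hybridising immunoprecipitated chromatin DNA to promoter arrays (ChIP-chip). The cells were mouse embryonic stem (ES) cells carrying a constitutive knockout of Dnmt1 (Dnmt1-KO) or of Eed (Eed-KO), and wild-type (WT) ES cells. No treatment distinguished the groups, and the labels do not describe the deleted parts of the genes, the number of clones or the parental lines. Cells were grown on irradiated mouse embryonic fibroblasts or on gelatin, and the labels do not say which culture was on which. Immunoprecipitated (IP) DNA in Cy5 and input DNA in Cy3 were hybridised together on 2 array designs that carry different probes, so 6 arrays gave 1 measurement of each promoter per genotype. No promoter was measured on replicate arrays, so no test was made, and precision is limited by how few arrays there were.

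DNA methylation in mammals is written at CpG dinucleotides. Dnmt3a and Dnmt3b place new methyl groups, with Dnmt3l as a catalytically inactive partner, and Dnmt1 copies the pattern onto the daughter strand after replication, guided by Uhrf1, which recognises hemimethylated CpG. Mbd1 and Mbd2 bind methylated CpG, Mbd3 is a subunit of the NuRD remodelling and deacetylase complex, and Mbd4 is a glycosylase that removes thymine from mismatches that arise when methylated cytosine is deaminated. Rybp belongs to variant Polycomb repressive complex 1, which ubiquitinates histone H2A, and part of which is directed to unmethylated CpG islands by the CXXC-domain protein Kdm2b. Eed is needed by Polycomb repressive complex 2 to methylate lysine 27 of histone H3.

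Dnmt3b had the highest start level of the members in Eed-KO and was level with Mbd1 at the top in WT, an order that changes with the width of the window. The probes printed here run from its start into the gene, on chromosome 2 from 153340947 to 153342158 in the coordinates of the files. Neither labels nor file headers name the genome build. They are shown because the probes that exceeded 2-fold in WT and Eed-KO lie among them and not at the start itself. Capitals mark CG, and each sequence is written as deposited.
Dnmt3b probe at +72 bp: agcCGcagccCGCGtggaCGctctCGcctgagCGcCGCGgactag
Dnmt3b probe at +178 bp: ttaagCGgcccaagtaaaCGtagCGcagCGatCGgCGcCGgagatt
Dnmt3b probe at +297 bp: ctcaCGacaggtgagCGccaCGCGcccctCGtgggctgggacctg
Dnmt3b probe at +517 bp: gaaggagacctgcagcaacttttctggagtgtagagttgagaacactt
Dnmt3b probe at +678 bp: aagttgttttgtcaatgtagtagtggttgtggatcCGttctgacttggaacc
Dnmt3b probe at +798 bp: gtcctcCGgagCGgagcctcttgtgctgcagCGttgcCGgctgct
Dnmt3b probe at +956 bp: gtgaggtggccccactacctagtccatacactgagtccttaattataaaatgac
Dnmt3b probe at +1083 bp: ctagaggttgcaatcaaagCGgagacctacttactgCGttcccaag
Dnmt3b probe at +1231 bp: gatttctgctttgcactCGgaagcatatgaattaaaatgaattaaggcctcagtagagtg

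RefSeq promoters (GRCm38.p6, 250 bases before to 50 after a start) were found for 7 of the 9 genes, 14 promoters in all. The following are those with the most CG among the ones that hold array probes. Promoters of Mbd3 and Mbd4, another of Dnmt1 and the first of Uhrf1 also held probes, with 22, 25, 12 and 12 CG. Capitals mark the stretches that the probes cover. The promoter of Dnmt3b, at chr2:153649199-153649498 on the plus strand, holds the probe at -131 bp and 30 CG. The start of Dnmt1 at chr9:20952574-20952873, on the minus strand, holds the probes at 70 and 221 bp and 33 CG. The second start of Uhrf1, at chr17:56304063-56304362 on the plus strand, lies 976 bp inside the first and holds the probes at 685, 805 and 918 bp and 33 CG. The median over all RefSeq promoters was 7 CG.
Dnmt3b promoter: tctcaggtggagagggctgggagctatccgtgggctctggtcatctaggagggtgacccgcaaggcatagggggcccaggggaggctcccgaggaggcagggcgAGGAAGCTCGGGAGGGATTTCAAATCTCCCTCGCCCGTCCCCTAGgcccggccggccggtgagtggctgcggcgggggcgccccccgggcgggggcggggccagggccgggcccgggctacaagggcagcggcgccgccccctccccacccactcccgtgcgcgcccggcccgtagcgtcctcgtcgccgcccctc
Dnmt1 promoter: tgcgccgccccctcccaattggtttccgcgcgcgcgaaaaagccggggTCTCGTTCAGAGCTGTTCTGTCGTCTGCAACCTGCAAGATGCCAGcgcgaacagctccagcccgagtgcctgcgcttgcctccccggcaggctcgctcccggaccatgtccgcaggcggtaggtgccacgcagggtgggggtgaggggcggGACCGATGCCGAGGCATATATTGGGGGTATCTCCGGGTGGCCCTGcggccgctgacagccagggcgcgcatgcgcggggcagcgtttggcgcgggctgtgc
Uhrf1 second promoter: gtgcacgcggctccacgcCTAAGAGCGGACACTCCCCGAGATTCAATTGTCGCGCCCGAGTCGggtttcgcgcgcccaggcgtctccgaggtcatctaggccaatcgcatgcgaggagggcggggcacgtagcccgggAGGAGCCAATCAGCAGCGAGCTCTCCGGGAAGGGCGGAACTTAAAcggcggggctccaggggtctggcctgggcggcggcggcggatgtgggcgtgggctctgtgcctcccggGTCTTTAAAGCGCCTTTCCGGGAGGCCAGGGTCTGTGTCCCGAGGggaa

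Rybp levels at the member starts were low in both Eed-KO and WT. In Dnmt1-KO they were higher than in WT at 7 of 8 genes, where 75.5% of all promoters were higher. A level is the mean over the probes of the start window of log2 IP over input, with the array median set to 0, and a start was called bound from a level of 1, a 2-fold enrichment. In Dnmt1-KO, 3 of 8 starts were bound, Dnmt3b, Mbd1 and Mbd3, where 29.3% of all promoters were. In Eed-KO 0 of 8 were bound, where 1.73% of all promoters were, and in WT 0 of 8, where 1.46% were. Over the members the median level was 0.81 in Dnmt1-KO, 0.20 in Eed-KO and 0.17 in WT, against 0.61, 0.11 and 0.17 over all promoters in the same genotypes. No member lay above percentile 90 of all promoters in any of the 3 genotypes. Of the 81 start-window probes, 37 reached 1 in Dnmt1-KO, 3 in Eed-KO and 2 in WT, shares of 45.7%, 3.70% and 2.47%. Over all start-window probes the shares were 33.0%, 5.77% and 5.15%.

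**Figure D1:**
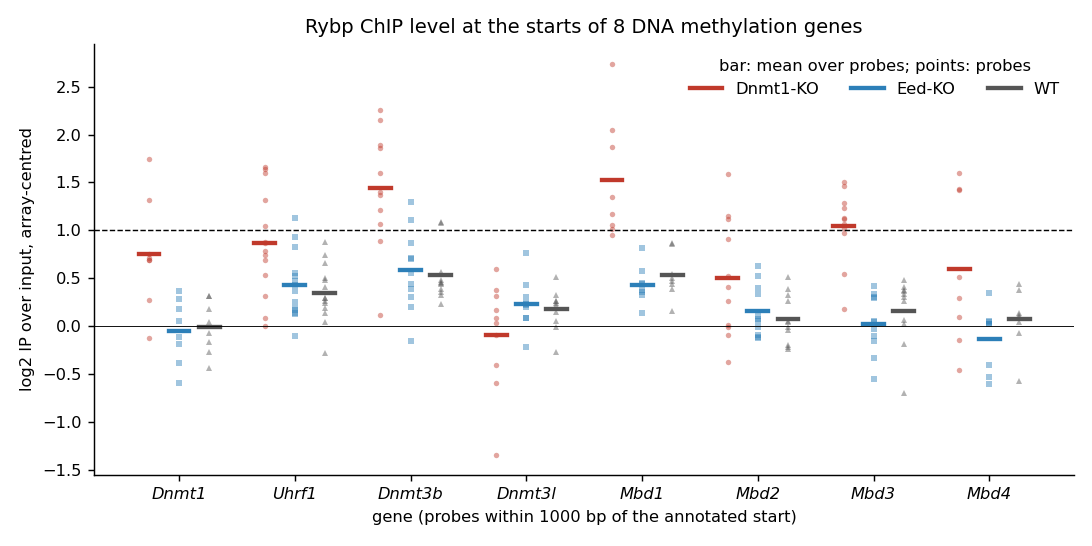
Level at each member start (y axis, log2 IP over input centred on the array median) in Dnmt1-KO, Eed-KO and WT, with 1 point per probe, a bar at the mean over probes and a dashed line at the bound level. The Dnmt1-KO bars of Dnmt3b, Mbd1 and Mbd3 pass the line at 1.44, 1.53 and 1.05, and every Eed-KO and WT bar stays below 0.59.

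A level has as its error the standard deviation (SD) among the probes in its window, and a difference the standard error (SE) among them. Both cover scatter between probes and no variation between cultures or hybridisations. The Dnmt1-KO arrays were read on another scanner model and with another version of the extraction software than the Eed-KO and WT arrays, and their probe log ratios were wider, with SDs of 0.96 and 0.91 on the 2 designs, against 0.45 and 0.47 in Eed-KO and 0.41 and 0.42 in WT. The effect of the Dnmt1 knockout and that of the scan therefore cannot be told apart, and the differences of Dnmt1-KO are also given with the arrays set to 1 spread.

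Among the maintenance genes, the start of Dnmt1 (chromosome 9, minus strand, annotated start at 20703275) had a level of 0.76 ± 0.57 in Dnmt1-KO, -0.05 ± 0.33 in Eed-KO and -0.01 ± 0.27 in WT (SD over 8 probes). These levels ranked at percentiles 58.1, 28.1 and 27.3 of all promoters in the same genotypes. Dnmt1 had the lowest WT level of the 8 genes. In Dnmt1-KO the highest probes were those at 221 bp, with 1.32, and 396 bp, with 1.75, against -0.60 and 0.28 in Eed-KO and -0.17 and 0.32 in WT. The 3 probes from 70 to 396 bp, which include those in capitals in the Dnmt1 promoter above, averaged 1.25 ± 0.53 in Dnmt1-KO, -0.24 ± 0.46 in Eed-KO and -0.04 ± 0.31 in WT. The signal was narrow, since the 13 probes more than 1000 bp upstream averaged -0.24 ± 0.46 in Dnmt1-KO and the 8 probes from 1009 to 2417 bp averaged -0.31 ± 0.49. Some probes of both flanks had input not well above background in Dnmt1-KO, a flag set there with another multiplier than in Eed-KO and WT. The flanks had 38.4% and 37.8% GC, against 56.3% at 70 to 396 bp, and the part of GC content in this contrast was not tested. The upstream start of Dnmt1 in RefSeq, 7265 bp from the innermost, held no array probe. As the labels do not give the deleted part of Dnmt1, these probes do not check the knockout.

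The start of Uhrf1 (chromosome 17, plus strand, 55937127) had a level of 0.87 ± 0.54 in Dnmt1-KO, 0.43 ± 0.34 in Eed-KO and 0.35 ± 0.30 in WT (SD over 14 probes), at percentiles 63.8, 81.8 and 70.7. The position of the highest probes differed between the genotypes. In Dnmt1-KO the 4 probes from 685 to 1076 bp, at and beyond the second RefSeq promoter shown above, averaged 1.62 ± 0.04, against 0.08 ± 0.34 in Eed-KO and 0.38 ± 0.30 in WT. At 260 bp, the highest probe of the window in Eed-KO and in WT, the level was 0.88 in Dnmt1-KO, 1.13 in Eed-KO and 0.88 in WT. Read over 4 probes from 260 to 685 bp, the averages were 1.11 ± 0.38 in Dnmt1-KO, 0.75 ± 0.34 in Eed-KO and 0.69 ± 0.16 in WT. These 2 stretches share the probe at 685 bp, which had 1.66 in Dnmt1-KO, 0.52 in Eed-KO and 0.74 in WT. They were chosen after their values were seen. Arrdc5 starts nearby, and the probe nearest to the Uhrf1 start is annotated to both genes.

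Dnmt3b (chromosome 2, plus strand, 153340897), one of the de novo enzymes, had a start level of 1.44 ± 0.62 in Dnmt1-KO, 0.58 ± 0.41 in Eed-KO and 0.53 ± 0.28 in WT (SD over 11 probes), at percentiles 87.4, 89.6 and 85.2. The genotypes separated at the start and lay closer together on average from 678 to 1231 bp. The 4 probes from 72 to 517 bp, the first 4 printed above, averaged 1.92 ± 0.38 in Dnmt1-KO, 0.43 ± 0.42 in Eed-KO and 0.39 ± 0.14 in WT, and held 20 CG. The 5 probes from 678 to 1231 bp, the last 5 printed, averaged 1.46 ± 0.30 in Dnmt1-KO, 0.97 ± 0.39 in Eed-KO and 1.01 ± 0.34 in WT, and held 8 CG.

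At 678 bp the level was 1.89 in Dnmt1-KO, 1.29 in Eed-KO and 1.08 in WT. At 798 bp it was 1.60, 1.1 and 1.09 in the same order of genotypes, at 1083 bp 1.44, 1.16 and 1.07, and at 1231 bp 1.16, 1.01 and 1.37. These 4 probes were past 2-fold in all 3 genotypes, whereas the probe between them at 956 bp had 1.21 in Dnmt1-KO, 0.30 in Eed-KO and 0.45 in WT. At the 517 bp probe, which has no CG, Dnmt1-KO had 2.26, the highest value of the Dnmt3b window, against 0.86 in Eed-KO and 0.44 in WT. Upstream, 8 probes from -4344 to -1045 bp averaged -0.13 ± 0.22 in Dnmt1-KO, 0.26 ± 0.21 in Eed-KO and 0.15 ± 0.23 in WT. Downstream, 7 probes from 1362 to 2519 bp averaged 0.59 ± 0.37 in Dnmt1-KO, 0.20 ± 0.28 in Eed-KO and 0.49 ± 0.25 in WT. Among them, the probes at 2259 and 2519 bp separated again, with 0.92 and 1.11 in Dnmt1-KO, -0.20 and 0.10 in Eed-KO and 0.15 and 0.22 in WT. The division into stretches was made after the values were seen.

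**Figure D2:**
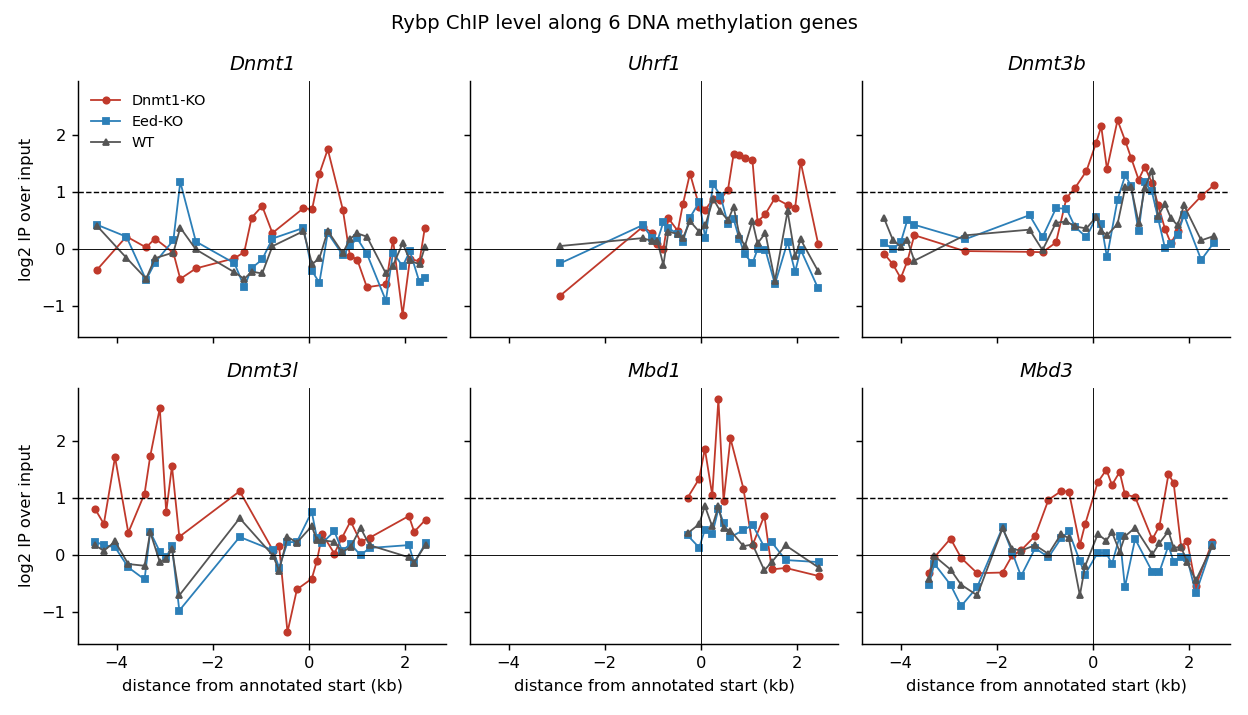
Level (y axis, log2 IP over input) of each probe against its distance from the annotated start (x axis, kb) along 6 member genes in Dnmt1-KO, Eed-KO and WT, with a dashed line at the bound level. Dnmt3b is the gene where all 3 genotypes pass the line, between 678 and 1231 bp, Dnmt3l passes it in Dnmt1-KO upstream and not at its start, and Dnmt1, Uhrf1, Mbd1 and Mbd3 pass it near the start in Dnmt1-KO.

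Dnmt3l (chromosome 10, plus strand, 77452970) was the only one of the 8 starts with a lower level in Dnmt1-KO than in WT, at -0.09 ± 0.57 in Dnmt1-KO, 0.23 ± 0.25 in Eed-KO and 0.18 ± 0.21 in WT (SD over 10 probes). Its Dnmt1-KO level lay at percentile 20.5, its Eed-KO level at 64.8 and its WT level at 51.3. The difference of Dnmt1-KO from WT was -0.26 ± 0.22 (SE), with 5 of 10 probes above WT, so it did not exceed the probe scatter by much. Further away the order turned round. Over 7 probes from -4032 to -2847 bp, annotated to both Aire and Dnmt3l, the mean was 1.41 ± 0.73 in Dnmt1-KO, 0.02 ± 0.27 in Eed-KO and 0.03 ± 0.23 in WT. These probes held 0 CG and 44.3% GC. Over 4 probes from 17480 to 17955 bp, annotated to Icosl, the mean was 1.70 ± 0.45 in Dnmt1-KO, -0.00 ± 0.18 in Eed-KO and 0.06 ± 0.26 in WT. RefSeq gives Dnmt3l starts at 78042287, 78049842 and 78055335 on chromosome 10 of GRCm38.p6, and no whole array probe lay in their promoters. The upstream stretch can therefore lie inside a longer Dnmt3l transcript. Within the start window 5 probes were lower in Dnmt1-KO than in WT, and the widest gap was at -442 bp, with -1.35 in Dnmt1-KO, 0.23 in Eed-KO and 0.33 in WT. Those at 63 and 170 bp had -0.41 and -0.10 in Dnmt1-KO, 0.77 and 0.30 in Eed-KO and 0.51 and 0.27 in WT, and are shown because they are the ones of the 5 that hold CG, in capitals.
Dnmt3l probe at +63 bp: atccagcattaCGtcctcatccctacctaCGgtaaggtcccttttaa
Dnmt3l probe at +170 bp: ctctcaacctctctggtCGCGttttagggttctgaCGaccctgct

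Dnmt3a, the other de novo enzyme, could be read only inside the gene. Its 28 probes lay 23528 to 30504 bp after the annotated start (chromosome 12, plus strand, 3806979), and 3 further probes once assigned to it were unmapped in the later annotation. They fall between the RefSeq starts, the last of which lies 84764 bp after the first, so no Dnmt3a promoter was measured. The mean over the 28 probes was 0.08 ± 0.54 in Dnmt1-KO, -0.06 ± 0.25 in Eed-KO and -0.18 ± 0.60 in WT. A probe at 29918 bp had 0.59 in Dnmt1-KO, 0.06 in Eed-KO and -3.16 in WT, and without it the WT mean was -0.07 ± 0.13 over 27 probes. In Dnmt1-KO 1 probe reached 1, and in Eed-KO and WT 0 probes did.

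Among the methyl-CpG-binding domain genes, Mbd1 (chromosome 18, plus strand, 74393672) had the highest Dnmt1-KO start level of the members, closely followed by Dnmt3b. Its start had 1.53 ± 0.64 in Dnmt1-KO, 0.43 ± 0.20 in Eed-KO and 0.53 ± 0.24 in WT (SD over 8 probes), at percentiles 89.7, 82.0 and 85.0. The Dnmt1-KO probes ran from 0.95 to 2.74 and 7 of 8 reached 1, whereas the Eed-KO probes ran from 0.14 to 0.81 and the WT probes from 0.16 to 0.87, so the Dnmt1-KO values did not overlap the others. Such a separation was seen at 2.19% of all promoters, and with the arrays set to 1 spread the level was 0.999 in Dnmt1-KO, 0.56 in Eed-KO and 0.76 in WT. Inside the gene, over 31 probes from 9527 to 16169 bp, Dnmt1-KO was the lowest, with -0.73 ± 0.55 against -0.12 ± 0.32 in Eed-KO and -0.10 ± 0.20 in WT. Part of those probes are annotated to Ccdc11.

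Mbd3 (chromosome 10, minus strand, 79802608) was bound only just in Dnmt1-KO, at 1.05 ± 0.39, with 0.02 ± 0.30 in Eed-KO and 0.16 ± 0.35 in WT (SD over 11 probes), at percentiles 73.1, 38.1 and 48.9. All 11 probes were higher in Dnmt1-KO than in WT. The 6 probes inside the gene, from 105 to 883 bp, averaged 1.26 ± 0.20 in Dnmt1-KO, 0.00 ± 0.33 in Eed-KO and 0.32 ± 0.15 in WT, and the 5 upstream probes 0.79 ± 0.41, 0.05 ± 0.31 and -0.04 ± 0.43. The probe at 105 bp was saturated on a Dnmt1-KO array.

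Mbd2 (chromosome 18, plus strand, 70693556) had 0.50 ± 0.62 in Dnmt1-KO, 0.16 ± 0.27 in Eed-KO and 0.08 ± 0.26 in WT (SD over 11 probes), at percentiles 44.3, 56.8 and 39.1. Its window was divided in Dnmt1-KO, with 0.95 ± 0.44 over the 6 probes from -81 to 886 bp and -0.04 ± 0.23 over the 5 probes upstream of them, which had 60.2% and 37.3% GC. In WT the same stretches had 0.15 ± 0.27 and -0.00 ± 0.24. A second stretch, 6 probes from -3303 to -2353 bp, had 0.97 ± 0.20 in Dnmt1-KO, 0.42 ± 0.31 in Eed-KO and 0.08 ± 0.24 in WT.

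Mbd4 (chromosome 6, minus strand, 115819340) had 0.59 ± 0.79 in Dnmt1-KO, -0.13 ± 0.34 in Eed-KO and 0.07 ± 0.31 in WT (SD over 8 probes), at percentiles 49.2, 17.4 and 38.0. Its window is shared with Ift122, which starts nearby, and the level cannot be assigned to either gene. The probes at 18, 193 and 443 bp had 1.42, 1.43 and 1.60 in Dnmt1-KO, and 5 of 8 probes were above WT. All 8 Eed-KO probes were below WT, by 0.20 ± 0.08 (SE) on average, a size that 13.5% of all promoters matched or went below. The share of promoters with every probe below WT was not computed. This difference moved with the processing, to -0.05 in windows of 500 bp and -0.08 both with normexp correction and by medians over probes. It was 0.02 over all probes of the gene and -0.28 with the arrays set to 1 spread.

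In Dnmt1-KO the order of the starts was Mbd1 at 1.53, Dnmt3b at 1.44, Mbd3 at 1.05, Uhrf1 at 0.87, Dnmt1 at 0.76, Mbd4 at 0.59, Mbd2 at 0.50 and Dnmt3l at -0.09. Every step in this order was smaller than the larger of the probe SDs of the neighbours it separates. Dnmt3b stood above Mbd1 in Dnmt1-KO after normexp background correction, at 1.44 against 1.41, in windows of 500 bp, and by medians over probes, at 1.40 against 1.26. In Eed-KO the highest were Dnmt3b at 0.58, then Mbd1 and Uhrf1 at 0.43. In WT the order ran from Dnmt3b and Mbd1 at 0.53 through Uhrf1 at 0.35, Dnmt3l at 0.18, Mbd3 at 0.16, Mbd2 at 0.08 and Mbd4 at 0.07 to Dnmt1 at -0.01, and each step was smaller than the probe SDs, which were 0.21 to 0.35. In windows of 500 bp Dnmt3b no longer led, with 0.29 in Eed-KO and 0.37 in WT, below Uhrf1 at 0.57 in Eed-KO and Mbd1 at 0.61 in WT. Mbd1 was also above Dnmt3b in WT with a trend on probe GC content removed and by medians over probes.

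The promoters with levels most like Dnmt3b over the 3 genotypes, by Euclidean distance with each genotype divided by its SD over promoters, were Tifa (1.47 in Dnmt1-KO, 0.58 in Eed-KO and 0.55 in WT), Rcsd1 and Itpka. Within 0.25 SD of Dnmt3b lay 80 promoters. For Mbd1 the nearest were Sil1 (1.55, 0.42 and 0.53 in the same genotypes), Elfn1 and Srf, and 91 promoters lay within 0.25 SD. Combinations of levels like those of these 2 genes were thus shared with many promoters.

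**Figure D3:**
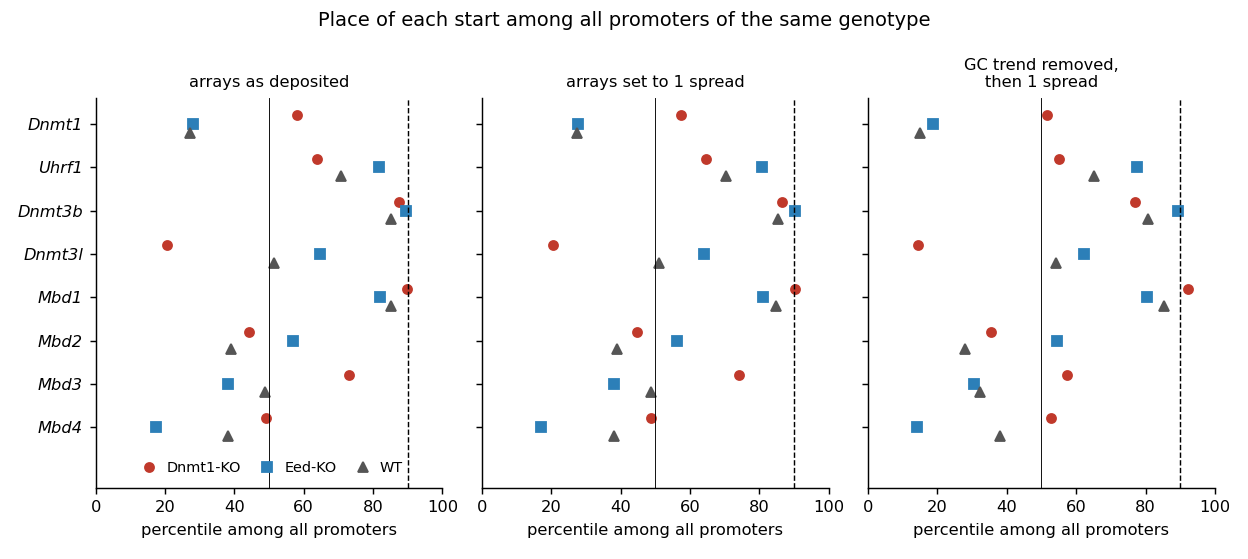
Percentile of each member start among all promoters of the same genotype (x axis) for Dnmt1-KO, Eed-KO and WT, with the arrays as deposited, after the arrays were set to 1 spread, and after a trend on probe GC content was also removed, with lines at percentiles 50 and 90. Dnmt3b and Mbd1 stay above percentile 77 in every panel and genotype, and Dnmt3l in Dnmt1-KO stays below percentile 21.

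The first question of the design is how Rybp occupancy differs when the maintenance methyltransferase is missing. A difference was called where it was at least 1 in size and the start was bound in either genotype. By this rule 0 of 8 members were higher in Dnmt1-KO, where 11.8% of all promoters were, and 0 of 8 were lower, where 0% of all promoters were. The nearest to the rule was Mbd1, at 0.996 ± 0.18 (SE over 8 probes), followed by Dnmt3b at 0.90 ± 0.19, Mbd3 at 0.89 ± 0.07 and Dnmt1 at 0.77 ± 0.22. Mbd4 had 0.52 ± 0.32, Uhrf1 0.52 ± 0.13, Mbd2 0.42 ± 0.15 and Dnmt3l -0.26 ± 0.22. The median member difference was 0.65, against 0.41 over all promoters, of which 75.5% had a higher level in Dnmt1-KO. With the arrays set to 1 spread the member median fell to 0.23 and that of all promoters to 0.08. No member start was then bound, where 9.56% of all promoters were in Dnmt1-KO, Mbd1 being just short at 0.999. The largest differences were those of Dnmt1, at 0.50, and Mbd3, at 0.46, and Mbd1 had 0.24. Where the GC trend was also removed, the member median was 0.17, the difference at Dnmt3b 0.00 and that at Uhrf1 -0.01, so 6 of the 7 positive differences kept their sign.

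**Figure D4:**
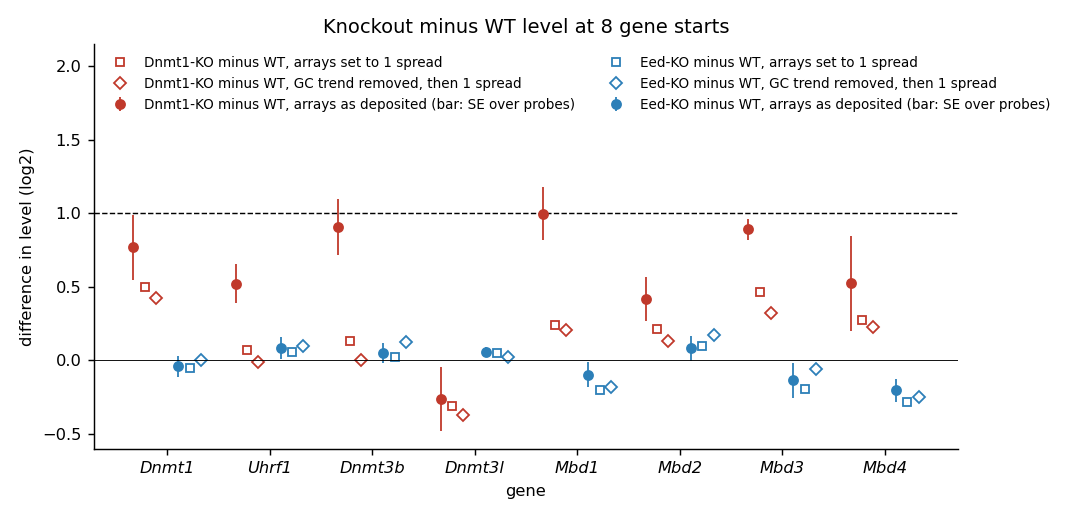
Difference in level from WT (y axis, log2) at each member start for Dnmt1-KO and Eed-KO, with the arrays as deposited (filled, bar as SE over probes), set to 1 spread (squares), and without the GC trend besides (diamonds), and a dashed line at the size called. No point reaches the line, and the Dnmt1-KO differences shrink under both treatments except at Dnmt3l, where the negative difference widens to -0.31 and -0.37, while the Eed-KO ones stay between -0.28 and 0.18.

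The Dnmt1-KO arrays also differed from the others in the relation of log ratio to probe GC content and in the input channel. Over the 81 start-window probes the correlation of log ratio with GC content was 0.43 in Dnmt1-KO, -0.07 in Eed-KO and 0.24 in WT, and over all 474047 probes used it was 0.44, 0.25 and 0.30 in the same genotypes. Probes of a design share their array and neighbouring probes share DNA fragments. Input signal at the same 81 probes correlated with that of WT at 0.97 in Eed-KO and at 0.63 in Dnmt1-KO. At the Uhrf1 start the centred input signal was higher in Dnmt1-KO than in WT at every probe, by a median of 4.46 on the log2 scale and a range of 1.44 to 5.60. At the Dnmt3b start the median was 2.05, with a range of -2.60 to 3.59, and at the Mbd1 start 0.01, with a range of -1.20 to 2.27. Eed-KO inputs differed from WT by medians of -0.12 to 0.16 at the 8 starts. The SD of the input difference over all probes was 1.97 for Dnmt1-KO and 0.35 for Eed-KO. The part of GC content and of input in the Dnmt1-KO levels was not tested.

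**Figure D5:**
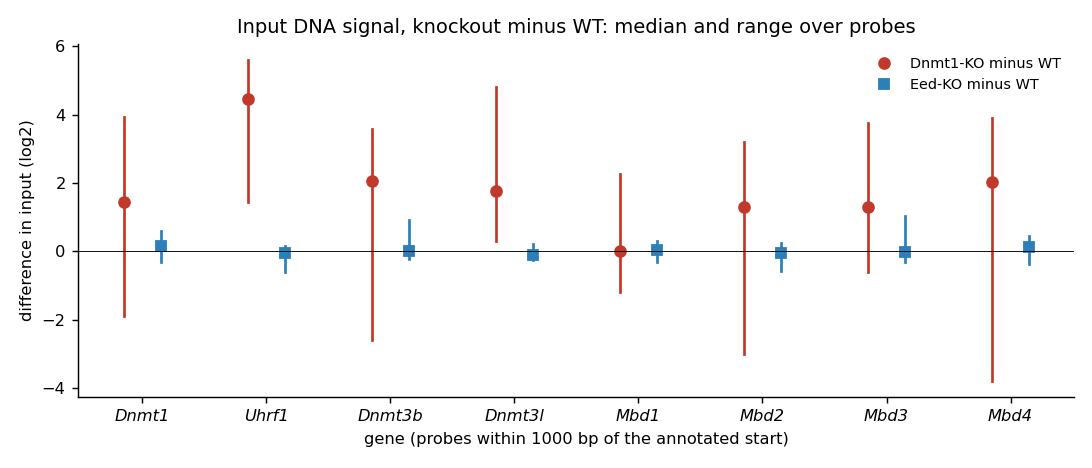
Input signal of each knockout minus that of WT (y axis, log2, arrays centred) at the start-window probes of each member, as the median (symbol) and range (line), for Dnmt1-KO and Eed-KO. The Dnmt1-KO median is highest at Uhrf1, at 4.46, and near 0 at Mbd1, whereas the Eed-KO medians lie between -0.12 and 0.16.

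The second question is how occupancy differs without Polycomb repressive complex 2. No member differed by the rule, with 0 of 8 higher, where 0% of all promoters were, and 0 of 8 lower, where again 0% were. Differences ran from -0.20 to 0.08, with a median of 0.01 over the members and -0.05 over all promoters. Dnmt3b had a difference of 0.05 ± 0.07 (SE over 11 probes), Uhrf1 0.08 ± 0.08, Mbd2 0.08 ± 0.09, Dnmt3l 0.06 ± 0.03 and Dnmt1 -0.04 ± 0.07. Mbd1 had -0.10 ± 0.08, Mbd3 -0.13 ± 0.12 and Mbd4 -0.20 ± 0.08. The differences of Dnmt3l and Mbd4 were the ones larger than 1.5 times their SE, and both were far below the size called. Both knockouts are set against the same WT arrays.

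Each gene was also read over 1 run of 6 neighbouring probes in place of the start, the run with the highest mean over the 3 genotypes. By that reading 5 of 9 genes were bound in Dnmt1-KO, where 47.7% of all promoters were, 0 of 9 in Eed-KO, where 6% were, and 0 of 9 in WT, where 5.34% were. Dnmt3b, the nearest to bound in Eed-KO and WT, then had 1.59 ± 0.42 in Dnmt1-KO, 0.96 ± 0.35 in Eed-KO and 0.91 ± 0.38 in WT, at percentiles 78.7, 93.2 and 92.5. In Dnmt1-KO these runs had 1.28 at Uhrf1, 1.37 at Dnmt3l, 1.67 at Mbd1 and 1.12 at Mbd3, and a gene's highest run in Dnmt1-KO alone can lie elsewhere. The runs of Dnmt3l and Mbd3 were centred 18033 and 11116 bp from the start, that of Mbd3 in Rkhd1, whereas the 6 Mbd3 probes from 105 to 883 bp given above averaged 1.26 in Dnmt1-KO.

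Genes with related functions were read in the same way. Of 9 other methylation and reader genes with a start window, out of 12 listed, 3 were bound in Dnmt1-KO, 0 in Eed-KO and 0 in WT, and 1 was higher in Dnmt1-KO than in WT by the rule. The shares over all promoters, for this list and those that follow, were 29.3% bound in Dnmt1-KO, 1.73% in Eed-KO and 1.46% in WT, and 11.8% higher in Dnmt1-KO. That gene was Uhrf2, the paralogue of Uhrf1, with 1.97 in Dnmt1-KO, 0.56 in Eed-KO and 0.63 in WT. Trim28, the corepressor of zinc-finger proteins at imprinted and repeat sequences, had 1.38, 0.59 and 0.76 and was highest of the list in WT. Zbtb33, which encodes the methyl-CpG reader Kaiso, had 1.65 in Dnmt1-KO, 0.25 in Eed-KO and 0.70 in WT. Zbtb38, the lowest of the list in WT, had 0.18 in Dnmt1-KO, 0.08 in Eed-KO and -0.24 in WT.

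Among demethylation and base repair genes, 9 of 12 had a start window and 3 were bound in Dnmt1-KO, where 29.3% of all promoters were, and Gadd45g was the 1 bound in all 3 genotypes, with 3.08 in Dnmt1-KO, 1.33 in Eed-KO and 1.32 in WT. It was also the 1 gene of this list that was higher in Dnmt1-KO by the rule, by 1.76. Its family member Gadd45b had 1.19, 0.72 and 0.68 and the uracil glycosylase gene Ung 1.08, 0.22 and 0.30, both bound in Dnmt1-KO. Smug1, another uracil glycosylase gene and the lowest of the list in WT, had -0.10 in Dnmt1-KO, -0.41 in Eed-KO and -0.31 in WT. Tet1 and Tet3, which encode methylcytosine oxidases, had no start window, and Tet2 was just short of bound in Dnmt1-KO at 0.96, with 0.03 in Eed-KO and 0.09 in WT.

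Of 5 CXXC-domain genes with a window, out of 6, 4 were bound in Dnmt1-KO, where 29.3% of all promoters were, and 0 in Eed-KO or WT, where 1.73% and 1.46% were. Cxxc4 had 1.71 in Dnmt1-KO, 0.49 in Eed-KO and 0.77 in WT, the highest WT level of the list, and Kdm2b, whose product is a partner of Rybp in the variant Polycomb complex, had 1.40, 0.37 and 0.46. Kdm2a had 1.31, 0.09 and 0.45. Cxxc1 had 1.59 in Dnmt1-KO, 0.42 in Eed-KO and 0.34 in WT, the lowest WT level of the list, and was higher in Dnmt1-KO by the rule.

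Among NuRD partners of Mbd2 and Mbd3, 8 of 11 had a window. Of these, 4 were bound in Dnmt1-KO, where 29.3% of all promoters were, 1 in Eed-KO, where 1.73% were, and 1 in WT, where 1.46% were. The deacetylase gene Hdac2 was bound in all 3 genotypes, with 2.27 in Dnmt1-KO, 1.26 in Eed-KO and 1.32 in WT. Rbbp4, which encodes a histone chaperone, had 1.56, 0.21 and 0.28 and was higher in Dnmt1-KO by the rule. Hdac1 had 1.16, 0.17 and 0.21 and Rbbp7 1.22, 0.26 and 0.30. Gatad2a, the lowest of the list in WT, had 0.97 in Dnmt1-KO, 0.13 in Eed-KO and 0.16 in WT. In none of the 4 lists was a gene higher or lower in Eed-KO than in WT by the rule, where 0% of all promoters were in either direction. The widest differences of the listed genes were -0.46 at Zbtb33, -0.36 at Kdm2a and 0.32 at Zbtb38. These lay at percentiles 0.58, 1.99 and 99.0 of all promoters. The list medians were 0.90, 0.96, 1.40 and 1.06 in Dnmt1-KO, 0.19, 0.19, 0.42 and 0.15 in Eed-KO and 0.33, 0.30, 0.46 and 0.23 in WT, in the order in which the lists were described.

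Promoters of marker genes of the labelled cells and of the feeder cells were read for context. Of 4 ES cell markers with a window, out of 5, 2 were bound in Dnmt1-KO and 0 in Eed-KO and WT. Of 5 fibroblast markers, 3 were bound in Dnmt1-KO, 1 in Eed-KO and 1 in WT. Over all promoters the shares were 29.3%, 1.73% and 1.46% in the same genotypes. Rybp levels at promoters do not measure transcripts, so the labelled cell type was not checked.

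Letter matches in the RefSeq promoters were few. The E-box CACGTG, searched on both strands, was in 2 of the 14 member promoters, the second of Dnmt3l and the last of Dnmt3a, and in 7.15% of 32851 RefSeq promoters. GCGGGAA, a core of E2F sites, searched on both strands, was in 2, that of Mbd4 and the first of Uhrf1, and in 4.60% of all. The first promoter of Uhrf1, at chr17:56303087-56303386 on the plus strand, is shown because it holds both that match, in capitals, and the probe at -223 bp, which had 1.32 in Dnmt1-KO, 0.55 in Eed-KO and 0.48 in WT.
Uhrf1 first promoter: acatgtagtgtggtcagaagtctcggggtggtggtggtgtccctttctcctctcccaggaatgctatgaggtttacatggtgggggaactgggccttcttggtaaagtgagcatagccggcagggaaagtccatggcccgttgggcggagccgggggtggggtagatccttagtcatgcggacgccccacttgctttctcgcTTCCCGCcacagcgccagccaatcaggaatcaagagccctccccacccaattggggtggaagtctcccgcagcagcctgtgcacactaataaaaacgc

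The CG content of the array probes varied among the starts. Dnmt3b had 5.46 CG per 100 probe bases and Mbd3 5.32, at percentiles 94.4 and 93.6 of all promoters, while Mbd4 had 1.27 and Dnmt3l 1.62, at percentiles 29.2 and 36.6. Uhrf1 had 3.55, Mbd2 3.16, Mbd1 2.91 and Dnmt1 2.71, at percentiles 75.3, 68.4, 63.3 and 59.3. In the order of falling CG content, the Dnmt1-KO levels were 1.44 at Dnmt3b, 1.05 at Mbd3, 0.87 at Uhrf1, 0.50 at Mbd2, 1.53 at Mbd1, 0.76 at Dnmt1, -0.09 at Dnmt3l and 0.59 at Mbd4.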

How the data were processed

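Rybp ChIP-chip was measured on 6 Agilent promoter arrays, 2 designs for each of 3 genotypes. Per the file headers, the authors' deposited scanner files hold, for every spot, background-subtracted and dye-normalised processed signal intensities from Agilent Feature Extraction, version 10.1.1.1 for Dnmt1-KO and 9.5.3.1 for Eed-KO and WT, with a multiplier for signal well above background of 13 and 2.6. The submitters' processing notes list 9.5.3.1 throughout. The deposited value table holds log10 ratios that differ from the scanner log10 ratios by a constant per array. Its medians were -0.121 and -0.114 for Dnmt1-KO, -0.0317 and -0.0316 for Eed-KO and -0.025 and -0.027 for WT, and how the constants were set is not stated.

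From these, log2 of red (IP) over green (input) processed signal was centred on the array median of non-control probes. Dyes follow the labels. The 333 probes with an outlier flag on any array of their design were left out, none of them of a member, and 1 saturated member probe was kept. Of the 81 member start probes, 2 had input not well above background in Dnmt1-KO and 0 in WT. These flags rest on the unlike multipliers given above. Positions, distances and genes are those of the Dnmt1-KO files. Accessions were named through a GRCm38.p6 RefSeq table. Values were computed with Python 3.11.15, pandas 2.3.3 and statsmodels 0.14.6, and the start-window step was tested on simulated data.

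Named are all 9 members, and from each of 4 lists the genes bound in any genotype and the highest and lowest in WT. Tet2 and the stretches inside genes were chosen after their values were seen. Members and lists were chosen with earlier results of these data known. The alternatives tried were normexp correction (offset 50, limma 3.58.1), the deposited table, 1 median absolute deviation for the arrays of a design, a lowess trend on GC content (span 0.3, 3 passes) removed, both together, runs of 6 probes within 3000 bp (highest mean over the genotypes), windows of 500 bp, all probes of a gene, outlier spots kept, dim input left out, medians over probes, bound at 1.5-fold or 3-fold, and differences of 0.5.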

Additional observations from a re-analysis of the deposited data

Results flagged for a closer look

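Away from the starts, a run of 6 probes reached a level of 1 in Dnmt1-KO at 2 members, in data that the comparisons at the starts do not use. The runs were picked for their level in Dnmt1-KO, so their excess over WT follows in part from the choice. At Dnmt3l the highest run of 6 probes over 1000 bp from the start lay at -4032 to -2967 bp, on chromosome 10 from 77448914 to 77450027 in the coordinates of the files, and averaged 1.38 ± 0.79 in Dnmt1-KO (SD, 6 probes), -0.01 ± 0.29 in Eed-KO and 0.02 ± 0.24 in WT. At Mbd3 the run at 10673 to 11464 bp, on chromosome 10 from 79791122 to 79791961 and annotated to Rkhd1, had 1.12 ± 0.51 in Dnmt1-KO, 0.27 ± 0.30 in Eed-KO and 0.25 ± 0.29 in WT. Of all promoters, 47.7% reached 1 in Dnmt1-KO over the run of 6 probes with the highest mean over the genotypes. That run is chosen in another way and may include the start. The share for runs chosen as here was not computed. Signal short of this rule was seen elsewhere. At Uhrf1, 3 probes from 22269 to 22528 bp, annotated to Jmjd2b, averaged 1.24 ± 0.33 in Dnmt1-KO, -0.31 ± 0.40 in Eed-KO and -0.13 ± 0.24 in WT. The 6 Mbd2 probes from -3303 to -2353 bp given above averaged 0.97 in Dnmt1-KO.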

How the results depend on the processing

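No paired analysis was possible because each genotype had 1 array per design and no test was made. Bound counts in Eed-KO and WT stayed at 0 under every alternative, as did differences called between Eed-KO and WT. Shares bound over all promoters were highest at 1.5-fold, with 10.3% in Eed-KO and 12.0% in WT. Dnmt3b missed that threshold narrowly in Eed-KO, at 1.498-fold. Differences called between Eed-KO and WT covered at most 0.10% of all promoters, at a difference of 0.5. The median difference of Eed-KO from WT moved by less than the median probe SE of 0.08. The Dnmt1-KO results depended on the processing. Members bound in Dnmt1-KO numbered 3 (29.3% of all promoters), against 0 with the arrays set to 1 spread (9.56%), 1 with the GC trend removed (15.2%), 0 with both (3.73%), 5 with runs of 6 probes (47.7%), 0 over all probes of a gene (2.53%), 6 at 1.5-fold (51.2%) and 0 at 3-fold (8.95%). The median difference of Dnmt1-KO from WT was 0.65, against 0.23 with 1 spread, 0.42 with the GC trend removed, 0.17 with both, 0.87 with runs, 0.89 with windows of 500 bp and 0.26 over all probes of a gene, each beyond the median probe SE of 0.18. Differences called numbered 0 (11.8% of all promoters), against 2 with runs (25.8%), 2 with windows of 500 bp (24.0%) and 3 at a difference of 0.5 (27.1%). Other alternatives left these results within 1.5 times of the count or within that SE. A lower threshold admits more calls by construction, and the causes of the other shifts were not tested. With 1 array per promoter and genotype, variation between cultures and hybridisations was not measured.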
